A study of Danio rerio with 4 samples.

Results

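The genes of the BMP, activin and TGF-β signalling family were examined in sorted zebrafish β-cells that expressed the cytokine gene il1b or did not. Members were the rows of the gene table whose symbol begins with bmp, gdf, inhb, tgfb, acvr, smad, grem or fst, with nog or id followed by a digit, or is chrd, leaving out the isocitrate dehydrogenase symbols that begin with idh. This gave 76 of the 22044 genes in the table, of which 75 were protein-coding and 1 was an antisense transcript listed under the id1 symbol. The symbols ACVR1C, ACVR2B, BMP10 and SMAD4 are in capitals in the files and were taken as members. With lower-case symbols alone, limma called 3 members, all higher, so the single lower call reported below rests on this choice. The members comprised 16 BMP and GDF ligands, 7 activin and TGF-β ligands, 19 receptors, 11 SMADs, 12 secreted antagonists and binding proteins, 6 id genes, and 5 genes that share a name with the pathway and act outside its core.

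Ligands of this family are secreted as dimers that join type I and type II receptor kinases at the cell surface. The activated type I receptor phosphorylates receptor SMADs (Smad1, Smad5 and Smad9 for BMPs, Smad2 and Smad3 for activins and TGF-β), which enter the nucleus with Smad4, while Smad6 and Smad7 inhibit the cascade. The id genes are widely used readouts of BMP signalling, and in mammalian islets activin-type signalling is known for effects on insulin secretion and β-cell identity.

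The libraries were made from β-cells sorted from the primary islet of fish aged 3 months, 2 libraries from Tg(ins:il1b) fish and 2 from WT fish. The Tg(ins:il1b) fish express a truncated il1b, encoding the mature cytokine, from the insulin promoter. Both genotypes carried the reporter labelled Tg(ins:mKO), for which the study's methods give the line Tg(ins:nlsRenilla-mKO2) and which marks β-cells with the fluorescent protein Kusabira Orange, so the WT fish were also transgenic. The insulin promoter restricts the transgene to β-cells by design, the line descends from 1 selected founder, and how many fish entered each library is not given in the sources used here. No source says that replicate libraries were taken from separate fish, so the p-values below measure only the spread between these libraries. That spread exceeded counting error, with a chi-square per degree of freedom of 129 between the Tg(ins:il1b) replicates and 136.3 between the WT replicates. Whether it arose between fish or in the handling of the cells is not known.

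The targeted gene il1b had normalised counts of 587911 and 423851 in the Tg(ins:il1b) libraries, against 11.0 and 1.9 in the WT libraries, which matched the labels. The libraries held 28524617 and 28702122 reads assigned to genes for Tg(ins:il1b) and 35073715 and 35637509 for WT. The summed normalised counts of 9 β-cell genes were 3526500 and 3064740 in Tg(ins:il1b) and 6177830 and 8694200 in WT, with none of the 9 at 0 in any library. The insulin gene ins made up most of these sums, and of the 9 genes 4 had both Tg(ins:il1b) values above both WT values and 4 had both below. Of the 18504 genes tested below, 22.3% had both above and 22.1% both below, so such separation was common with 2 libraries a genotype. RNA of genes that mark other islet cells was present and uneven. The 4 α-cell markers all had both Tg(ins:il1b) values above both WT values, at sums of 198981 and 440358 in Tg(ins:il1b) and 24145 and 32748 in WT. The glucagon gene gcga had 122372 and 383327 normalised counts in Tg(ins:il1b), against 7690 and 3665 in WT, the ghrelin gene ghrl had 11636 and 97001 against 40.4 and 8.7, and the somatostatin gene sst1.1 had 45219 and 1076220 against 92133 and 2059. Of 16 macrophage and pan-leukocyte markers, 9 had both Tg(ins:il1b) values above both WT values, and the 16 genes' sums were 18606 and 54247 in Tg(ins:il1b) and 3747 and 16628 in WT. The genes cd74a and cd74b made up most of these sums. The medians of the 16 genes were low, at 18.7 and 49.15 in Tg(ins:il1b) and 2.75 and 5.35 in WT. Of 7 neutrophil markers 5 had both Tg(ins:il1b) values above both WT values, at sums of 1843 and 3217 in Tg(ins:il1b) and 1902 and 1820 in WT. The gene nccrp1 made up most of these sums, at 1550 and 2221 in Tg(ins:il1b) and 1784 and 1709 in WT. The medians of the 7 genes were 66.7 and 143.2 in Tg(ins:il1b) and 2.8 and 15.4 in WT. Both Tg(ins:il1b) values lay above both WT values in 4 of 8 duct markers. The 8 duct genes summed to 18157 and 32048 in Tg(ins:il1b) and 17953 and 10528 in WT. The 6 endothelial markers in the table summed to 27.2 and 79.1 in Tg(ins:il1b) and 152.5 and 111.9 in WT, with pecam1 and vwf at 0 in both Tg(ins:il1b) libraries. In bulk libraries such as these, fewer cells of a type and less RNA per cell cannot be told apart. Marker RNA from other cells and marker RNA made in β-cells cannot be told apart either. From the raised α-cell genes and lowered β-cell genes such as ucn3l and pdx1, the paper proposes that β-cell identity may be impaired. In juvenile Tg(ins:il1b) fish the paper reports a larger α-cell population and more leukocytes in the islets. It also reports a higher proportion of cells with both glucagon and insulin in these fish.

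Of the 76 members, 59 reached 10 normalised counts in 2 or more libraries and were tested, and 17 did not. Of the 59, 3 had both WT libraries under 10 (bmp4, smad1 and the id1 antisense transcript). Another 1, gdf9, had both Tg(ins:il1b) libraries under 10. These 4 passed only through the genotype in which they were high, so their direction and lack of overlap followed from the filter. Limma, fitted over all 18504 genes tested with Benjamini-Hochberg adjustment, called 4 members at an adjusted p under 0.05, 3 higher and 1 lower, against 1.63% of all genes tested (1.1% higher and 0.53% lower). The BMP ligand gene bmp6 and the transcriptional inhibitor genes id1 and id4 were higher in Tg(ins:il1b) β-cells, and the activin-type receptor gene ACVR1C was lower. EdgeR called the same 4 members, where it called 1.28% of genes (0.903% higher and 0.373% lower). DESeq2 called 9 members, where it called 6.68% of genes (4.24% higher and 2.45% lower), adding tgfb1a, fstl4 and the id1 antisense transcript as higher and fstl1b and smad6b as lower. The median log2 fold change was 0.08 over the 59 members and -0.01 over all genes tested. When any library was left out, limma called none of the 4 members, with 1 gene at most called in the whole table, whereas DESeq2 called all 4 whichever library was absent.

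**Figure D1:**
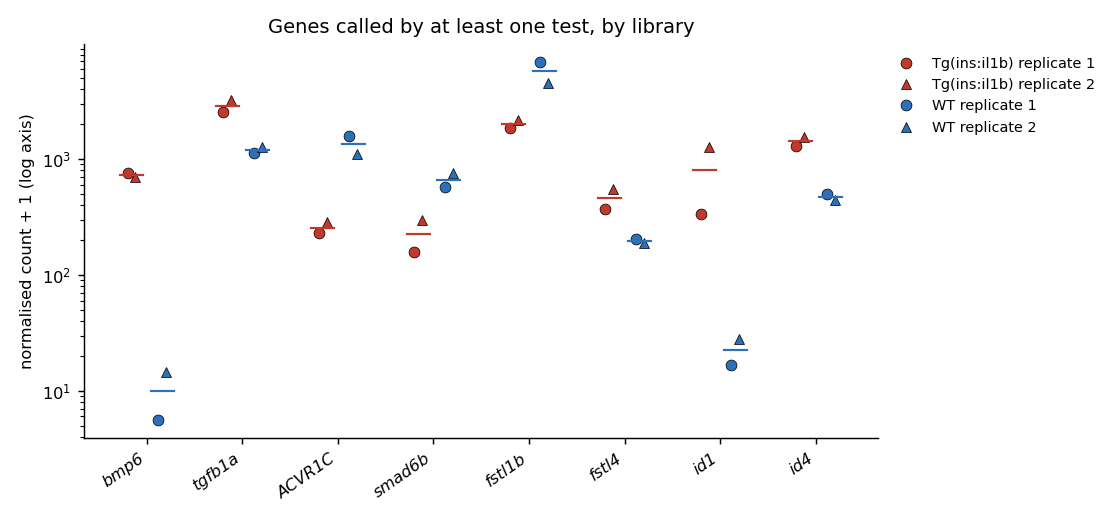
Normalised count plus 1 (log axis) of the 8 protein-coding members called by limma, edgeR or DESeq2, with 1 point per library and a bar at the mean of each genotype. In each gene the Tg(ins:il1b) points (red) lie wholly above or wholly below the WT points (blue), with the widest separation in bmp6 at 761.0 and 695.7 against 4.6 and 13.5.

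The libraries of the 2 genotypes did not overlap in 32 of the 59 members tested, 18 of them higher and 14 lower in Tg(ins:il1b), while 44.4% of all genes tested were apart in this way, 22.3% higher and 22.1% lower. The 32 include bmp4, smad1, gdf9 and the id1 antisense transcript, which passed the filter only through the genotype in which they were high. The log2 fold change lay between -1 and 1 in 33 of the 59 members, compared with 14577 of the 18504 genes. The genes called by limma and edgeR belonged to the ligands, receptors and id genes, and DESeq2 also called a SMAD and a pair of follistatin-like genes. In all 5 protein-coding id genes each Tg(ins:il1b) library was above each WT library.

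**Figure D2:**
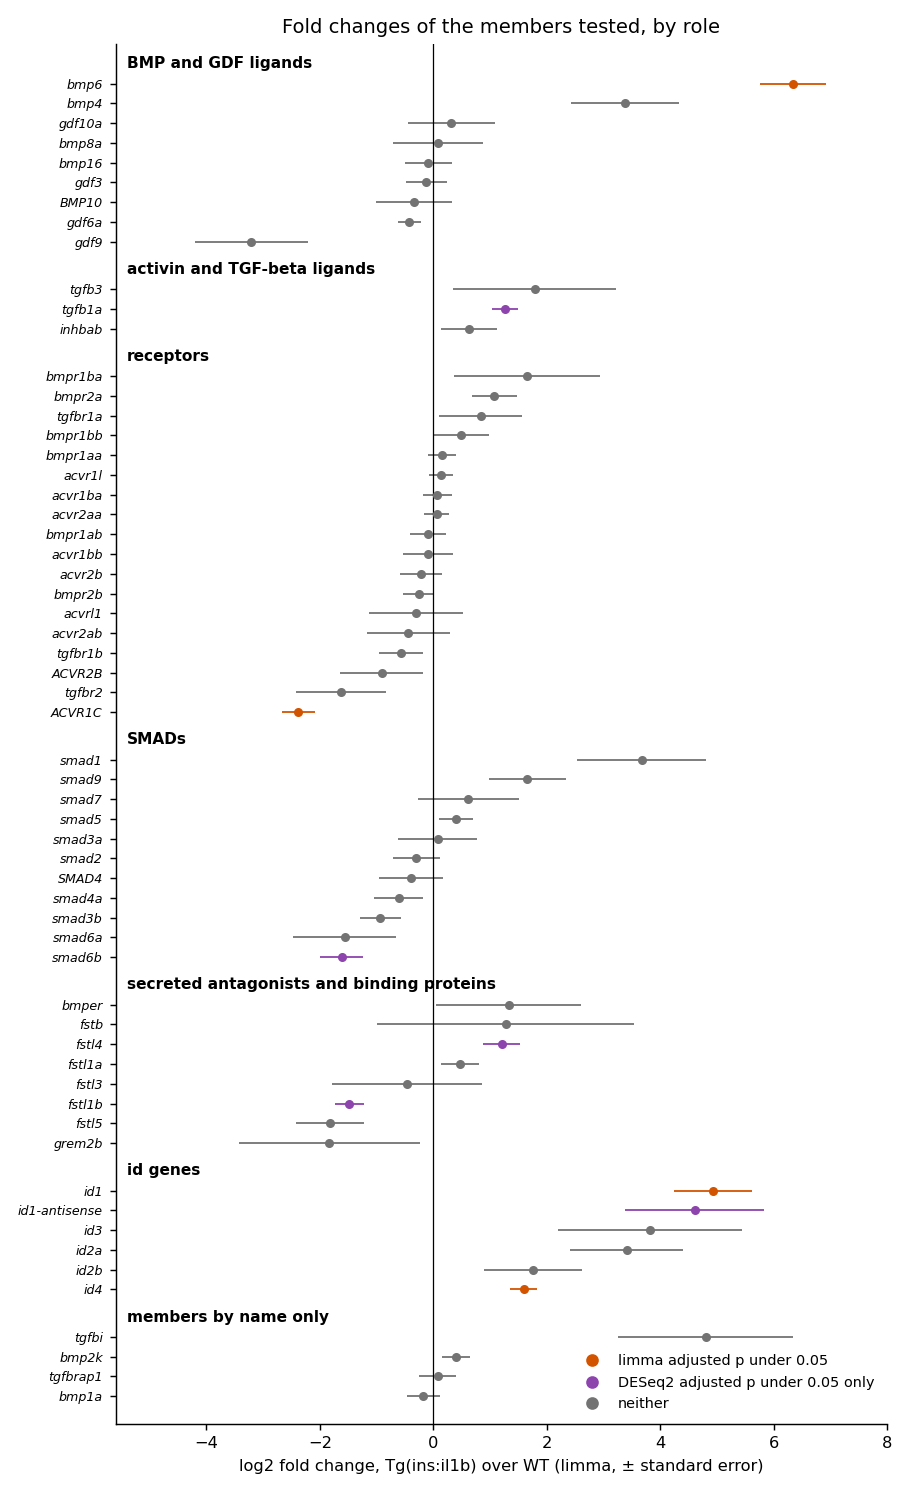
Limma log2 fold change of Tg(ins:il1b) over WT (horizontal axis, with standard error) for the 59 members tested, grouped by role from ligands at the top to the genes that belong by name only. Of the receptors 14 of 18 lie within 1 of 0 and of the SMADs 7 of 11. Far to the right lie bmp6 (6.34), id1 (4.93), tgfbi (4.80), the id1 antisense transcript (4.61), id3 (3.82), smad1 (3.67), id2a (3.41) and bmp4 (3.38). Of these, bmp6 and id1 were called by limma. smad1, bmp4 and the id1 antisense transcript passed the filter only through their Tg(ins:il1b) libraries.

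bmp6, on chromosome 24 from 7832054 to 7906490 (GRCz10), encodes a secreted BMP that in mammals is known for controlling hepcidin and iron balance. It had 761.0 and 695.7 normalised counts in the Tg(ins:il1b) libraries, against 4.6 and 13.5 in the WT libraries, corresponding to 753 and 651 reads against 5 and 14. Both Tg(ins:il1b) libraries were far above both WT libraries and close to each other. The means were 728 ± 46.2 in Tg(ins:il1b) and 9.05 ± 6.29 in WT (SD, n = 2 each), a ratio of 80.5. On the log2 scale bmp6 rose by 6.34 (SE 0.58, 95% confidence interval 4.95 to 7.73, limma adjusted p = 0.0130), with a DESeq2 adjusted p of 5.54e-30. Among all 18504 genes tested it ranked 29 by the size of its rise. Leaving out each library in turn, the limma log2 fold change of bmp6 stayed between 5.65 (without WT replicate 1) and 7.02 (without WT replicate 2), with adjusted p-values of 0.0809 to 0.129. The 4 α-cell markers, ghrl, 9 of the 16 leukocyte, 5 of the 7 neutrophil and 4 of the 8 duct markers were also wholly higher in Tg(ins:il1b). Of the 3 δ-cell markers, 1 was wholly higher. Wholly lower were 4 of the 6 endothelial and 3 of the 6 proliferation markers. Of the 13 acinar markers, 0 were wholly higher and 1 was wholly lower. Of the 11 mesenchymal markers, 1 was wholly higher and 2 were wholly lower. Of the 4 lymphocyte markers, 1 was wholly higher and 0 were wholly lower. Of all genes tested, 22.3% were wholly higher and 22.1% wholly lower. The part of these other cells in the bmp6 difference was not tested.

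None of the other BMP and GDF ligands was called by limma, edgeR or DESeq2. gdf6a, known in zebrafish as radar and needed for eye and dorsal patterning, had 1796 and 1789 normalised counts in Tg(ins:il1b) and 2609 and 2209 in WT. Its libraries did not overlap, at a log2 fold change of -0.42 that missed the threshold (SE 0.20, adjusted p = 0.420). gdf3, the zebrafish Vg1 ligand, had 292.1 and 244.7 normalised counts in Tg(ins:il1b) and 224.1 and 379.1 in WT, and bmp16, a BMP of teleost fish, had 154.6 and 284.3 in Tg(ins:il1b) and 259.9 and 192.0 in WT. Both overlapped between genotypes, as did bmp8a, gdf10a and BMP10, whose log2 fold changes lay between -0.34 and 0.32.

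bmp4, a BMP that patterns the embryo and many organs, had 23.2 and 32.1 normalised counts in Tg(ins:il1b) and 0.9 and 2.9 in WT. The 4 libraries separated by genotype at a low level, with a log2 fold change of 3.38 (SE 0.95) and adjusted p-values of 0.173 in limma and 0.0849 in DESeq2. gdf9, best known as an oocyte ligand, ran the other way at 1.0 and 1.1 normalised counts in Tg(ins:il1b) and 18.4 and 17.4 in WT (log2 fold change -3.20, SE 1.00, adjusted p = 0.213). Neither gene passed the threshold, and each passed the filter only through the genotype in which it was high.

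Divided by gene length, the 16 BMP and GDF ligands summed to 1242 and 1295 normalised counts per kilobase in Tg(ins:il1b) and 1232 and 1168 in WT. The total was thus nearly level while its makeup was not. bmp6 held 24.6% and 21.6% of this sum in Tg(ins:il1b), against 0.150% and 0.464% in WT. gdf6a held the largest share in every library, at 54.6% and 52.2% in Tg(ins:il1b) and 80.0% and 71.4% in WT. Of the 16 ligands, gdf6a alone stood above bmp6 per kilobase in both Tg(ins:il1b) libraries.

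**Figure D3:**
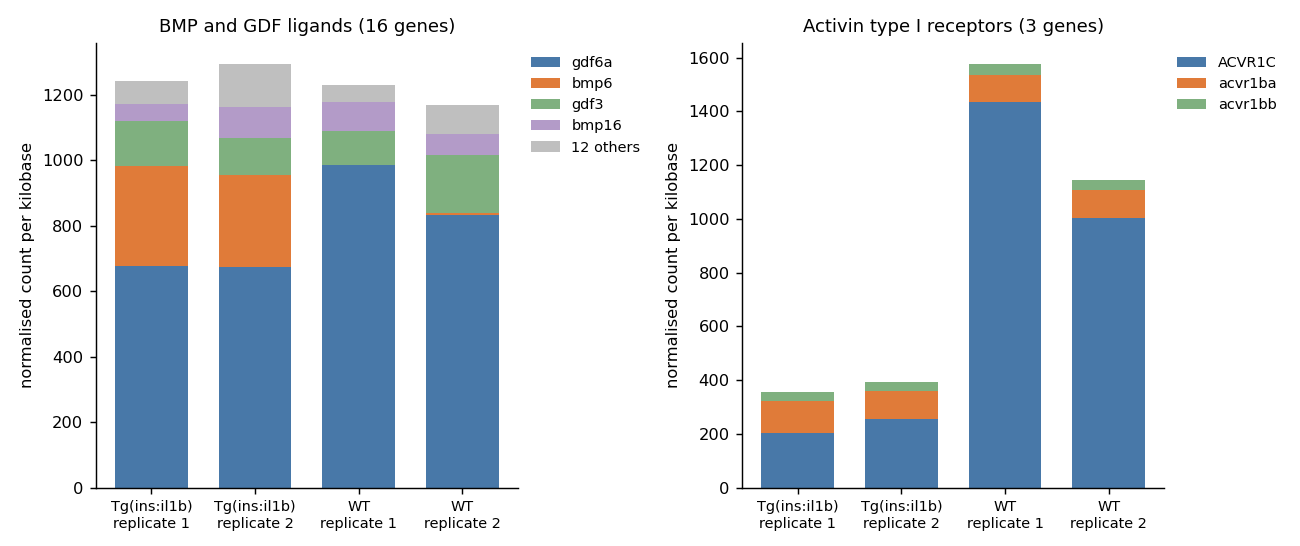
Stacked normalised counts per kilobase in each library for the 16 BMP and GDF ligands (left) and the 3 activin type I receptors (right). The ligand bars reach 1242 and 1295 in Tg(ins:il1b) and 1232 and 1168 in WT, with bmp6 visible only in Tg(ins:il1b), and the receptor bars reach 358 and 394 in Tg(ins:il1b) and 1577 and 1144 in WT, with the ACVR1C segment at 205 and 257 against 1435 and 1002.

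Of the BMP and GDF ligands, 7 failed the filter. gdf2, which encodes BMP9, a ligand that acts on endothelium, had 8.1 and 13.9 normalised counts in Tg(ins:il1b) and 0 in both WT libraries, at least 3.89-fold higher when 3 reads per library are taken as the limit that a count of 0 allows. gdf5, a ligand of joint formation, had 14.1 and 2.1 against 0 and 0, at least 2.87-fold higher over the group. The gdf5 bound rests on Tg(ins:il1b) replicate 1, since replicate 2 had 2 reads, under the limit. bmp2a, a zebrafish BMP2 gene, had 0 in both Tg(ins:il1b) libraries and 6.4 and 10.6 in WT, at least 2.73-fold lower. gdf7 had 9.1 and 52.4 normalised counts in Tg(ins:il1b) and 1.8 and 0 in WT. The remaining untested ligands bmp15, bmp2b and bmp5 did not exceed 10.1 in any library. These limits cover counting error only, and none of the 4 genes was tested by limma.

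Among the activin and TGF-β ligands, tgfb1a, encoding TGF-β1, had the highest level in every library. Its normalised counts were 2538 and 3266 in Tg(ins:il1b) and 1134 and 1271 in WT, so that both Tg(ins:il1b) libraries lay above both WT libraries. The means were 2902 ± 515 in Tg(ins:il1b) and 1202 ± 96.4 in WT (SD, n = 2 each), a log2 fold change of 1.26 (SE 0.22). This was called by DESeq2 (adjusted p = 3.85e-04) and narrowly missed in limma (adjusted p = 0.0569) and edgeR (adjusted p = 0.0662). The DESeq2 call was lost without Tg(ins:il1b) replicate 2 (adjusted p = 0.0559) and without WT replicate 1 (adjusted p = 0.107). Per kilobase, tgfb1a made up 94.4% and 83.9% of the sum of the 7 ligands in Tg(ins:il1b) and 89.2% and 89.1% in WT.

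tgfb3, a second TGF-β isoform, had 9.1 and 203.0 normalised counts in Tg(ins:il1b) and 21.1 and 6.8 in WT. Replicate 2 set the Tg(ins:il1b) mean, and without that library the limma log2 fold change turned to -0.38 from 1.79. inhbab, which encodes the βA subunit shared by activin A and inhibin A, had 77.8 and 142.1 normalised counts in Tg(ins:il1b) and 64.3 and 71.4 in WT (log2 fold change 0.63, adjusted p = 0.651). The remaining ligands inhbaa, inhbb, tgfb1b and tgfb2l failed the filter. inhbb, for the βB subunit, was read in 1 Tg(ins:il1b) library at 33.1 and was at 0 in the other, with 0.9 and 0 in WT.

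ACVR1C encodes ALK7, a type I receptor that in mammals responds to nodal, activin B and related ligands and is found in islets and fat. The gene (chromosome 9, 5429180 to 5470314) had 227.4 and 284.3 normalised counts in Tg(ins:il1b), against 1588 and 1110 in WT. Every WT library was well above every Tg(ins:il1b) library. The means were 256 ± 40.2 in Tg(ins:il1b) and 1349 ± 338 in WT (SD, n = 2 each), and the gene fell by 2.38 on the log2 scale (SE 0.29, 95% confidence interval -3.08 to -1.67, limma adjusted p = 0.0224, DESeq2 adjusted p = 7.54e-10). Of the 9 β-cell markers, 4 were wholly lower in Tg(ins:il1b) and 4 wholly higher, where 22.1% and 22.3% of all genes tested were. The lower ones had log2 fold changes of -0.77 (pdx1), -1.18 (ins), -3.35 (ucn3l) and -3.57 (g6pcb). The higher ones had 0.40 (mnx1), 0.45 (neurod1) and 0.71 (nkx2.2a), besides slc30a8, which failed the filter at 3.0 and 8.5 against 1.8 and 2.9. The part of β-cell content in the ACVR1C difference was not tested.

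The related receptors acvr1ba and acvr1bb, which encode the activin receptor ALK4, did not share this difference. acvr1ba had 465.9 and 414.6 normalised counts in Tg(ins:il1b) and 412.4 and 424.5 in WT, and acvr1bb had 73.8 and 68.4 in Tg(ins:il1b) and 79.9 and 72.4 in WT. Their log2 fold changes were 0.07 (95% confidence interval -0.56 to 0.70) and -0.10 (-1.17 to 0.98). Of the summed level of these 3 activin type I receptors per kilobase, ACVR1C held 57.4% and 65.2% in Tg(ins:il1b) and 91.0% and 87.6% in WT. The ACVR1C model in the files is short, at 1107 bases, and its value per kilobase and these shares depend on that model in all 4 libraries.

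None of the 6 BMP type I receptors was called. They summed to 895 and 935 normalised counts per kilobase in Tg(ins:il1b) and 881 and 767 in WT. acvr1l, the zebrafish BMP receptor Alk8, had 1607 and 1830 normalised counts in Tg(ins:il1b) and 1586 and 1533 in WT, a log2 fold change of 0.14 (95% confidence interval -0.36 to 0.63). bmpr1aa, which encodes ALK3, had 1766 and 1597 in Tg(ins:il1b) and 1775 and 1282 in WT (0.15, -0.43 to 0.74).

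Among the type II receptors, acvr2aa was the most abundant at 1207 and 1241 normalised counts in Tg(ins:il1b) and 1283 and 1069 in WT (log2 fold change 0.06, 95% confidence interval -0.47 to 0.59). bmpr2a, a type II receptor for BMPs, had 157.7 and 181.7 in Tg(ins:il1b) and 71.6 and 88.8 in WT, without overlap (log2 fold change 1.08, SE 0.39, adjusted p = 0.283). bmpr2a shares its position with fam117ba on the opposite strand, which had 145.5 and 190.2 in Tg(ins:il1b) and 17.5 and 18.3 in WT. Since no source states that reads were counted by strand, the bmpr2a values are uncertain. tgfbr2, a TGF-β type II receptor, had 11.1 and 7.5 in Tg(ins:il1b) and 45.0 and 20.3 in WT (log2 fold change -1.63, SE 0.79, adjusted p = 0.422). Apart from ACVR1C and tgfbr2, the log2 fold changes of the receptors lay between -0.91 (ACVR2B) and 1.65 (bmpr1ba). Of the 19 receptors, all but tgfbr3 were tested, and ACVR1C was the single receptor called by limma, edgeR or DESeq2.

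No SMAD passed the limma threshold. smad6b (chromosome 18, 19659209 to 19709995) encodes an inhibitory SMAD that acts mainly on BMP signals. It had 156.7 and 294.9 normalised counts in Tg(ins:il1b) and 574.9 and 757.3 in WT, so every Tg(ins:il1b) value was below every WT value. Its log2 fold change was -1.61 (SE 0.38), called by DESeq2 (adjusted p = 0.00790) and missed by limma (adjusted p = 0.122) and edgeR (adjusted p = 0.140). DESeq2 kept it without Tg(ins:il1b) replicate 2 only, and gave adjusted p-values of 0.128 without Tg(ins:il1b) replicate 1, 0.0791 without WT replicate 1 and 0.367 without WT replicate 2. Its paralogue smad6a was scarce, at 4.0 and 17.1 in Tg(ins:il1b) and 23.0 and 31.8 in WT, and likewise did not overlap between genotypes. smad7, the other inhibitory SMAD, overlapped at 59.6 and 377.2 in Tg(ins:il1b) and 65.2 and 145.7 in WT.

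The receptor SMADs of the BMP branch (smad1, smad5 and smad9) had positive fold changes, as did 9122 of the 18504 genes tested. No receptor SMAD of this branch passed a threshold. For smad1 the direction followed from the filter, which it passed only through its Tg(ins:il1b) libraries. smad5 was the highest of them, at 793.4 and 1065 normalised counts in Tg(ins:il1b) and 563.9 and 859.6 in WT. smad9 had 76.8 and 162.4 in Tg(ins:il1b) and 21.1 and 56.9 in WT (log2 fold change 1.66, SE 0.68, adjusted p = 0.339). smad9 lies over rfxap on the opposite strand, which had 23.2 and 18.2 in Tg(ins:il1b) and 21.1 and 24.1 in WT. Its counts are thus uncertain for the same reason as those of bmpr2a. smad1 was barely read, at 24.3 and 11.8 in Tg(ins:il1b) and 0 and 1.0 in WT (log2 fold change 3.67, SE 1.14, adjusted p = 0.211). smad9 did not overlap between genotypes, while smad5 did, and the lack of overlap of smad1 followed from the filter. Per kilobase, smad5 was the main BMP SMAD in all 4 libraries, at 311 and 418 in Tg(ins:il1b) and 221 and 337 in WT.

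In the activin and TGF-β branch, smad2 had 419.4 and 791.8 normalised counts in Tg(ins:il1b) and 534.5 and 936.8 in WT, with overlap. smad3b had 126.3 and 114.3 in Tg(ins:il1b) and 265.4 and 199.7 in WT, without overlap (log2 fold change -0.93, SE 0.36, adjusted p = 0.308). The shared partner smad4a had 113.2 and 89.8 in Tg(ins:il1b) and 197.5 and 120.6 in WT. smad3a and SMAD4 overlapped between genotypes. smad4a lies over rfx3 and glis3 on the opposite strand, so its counts are uncertain for the same reason as those of bmpr2a.

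The secreted antagonists and binding proteins were dominated by the follistatin-like gene pair fstl1a and fstl1b, which encode a secreted glycoprotein that binds ligands of the family. fstl1b (chromosome 9, 9757456 to 9864112) had 1857 and 2166 normalised counts in Tg(ins:il1b) and 6912 and 4539 in WT, with both Tg(ins:il1b) libraries lower. The log2 fold change was -1.48 (SE 0.26), called by DESeq2 (adjusted p = 9.98e-05) and just missed by limma (adjusted p = 0.0532) and edgeR (adjusted p = 0.0686), and lost in DESeq2 without WT replicate 1 (adjusted p = 0.0936). fstl1a had 10207 and 5850 in Tg(ins:il1b) and 4536 and 6875 in WT, with overlap (log2 fold change 0.47, adjusted p = 0.608).

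fstl4, a follistatin-like gene of less known function, had 371.9 and 554.6 normalised counts in Tg(ins:il1b) and 203.9 and 188.1 in WT. Both Tg(ins:il1b) libraries were higher, and DESeq2 called the gene (adjusted p = 0.0297) where limma did not (log2 fold change 1.21, SE 0.33, adjusted p = 0.161). The DESeq2 call was lost without any of the 4 libraries, at adjusted p-values of 0.0529 to 0.578. fstl5 had 163.7 and 634.8 in Tg(ins:il1b) and 1058 and 1237 in WT, without overlap (log2 fold change -1.82, SE 0.60, adjusted p = 0.231). Follistatin, the classical activin antagonist, has a pair of genes in zebrafish. fsta was barely read, at 4.0 and 6.4 in Tg(ins:il1b) and 4.6 and 6.8 in WT, and fstb was at 0 in 1 library of each genotype and at 72.7 and 11.6 in the others. Of the gremlins, which bind and block BMPs, grem2a was at 0 in both Tg(ins:il1b) libraries and at 2.8 and 27.0 in WT, at least 4.78-fold lower over the group. The grem2a bound rests on WT replicate 2, since WT replicate 1 had 3 reads, no more than the limit. Both rows under the symbol grem1a stayed under 12 in all libraries. bmper, fstl3 and grem2b overlapped between genotypes. No row had a nog or chrd symbol. Chordin, a BMP antagonist listed in the files as chd, had 17.2 and 10.7 in Tg(ins:il1b) and 22.0 and 5.8 in WT. Other rows outside the rule also have a current symbol that fits it. Of these, tgfbr2l was at 0 in both Tg(ins:il1b) libraries and at 10.1 and 22.2 in WT (limma log2 fold change -4.00, SE 1.19, adjusted p = 0.195). It passed the filter only through its WT libraries. smad10a and smad10b overlapped between genotypes.

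The id genes encode helix-loop-helix proteins that lack a DNA-binding domain and hold back basic helix-loop-helix transcription factors. In the 5 protein-coding id genes both Tg(ins:il1b) values lay above both WT values, as they did in 22.3% of all genes tested. The log2 fold changes of these id genes ran from 1.59 to 4.93. The separation of id3 was narrow, at 17 reads in Tg(ins:il1b) replicate 1 and 16 in WT replicate 1. id1 (chromosome 11, 18541849 to 18542961) had 337.6 and 1281 normalised counts in Tg(ins:il1b), against 15.6 and 27.0 in WT. The Tg(ins:il1b) libraries differed from each other but each was far above WT. The means were 809 ± 667 in Tg(ins:il1b) and 21.3 ± 8.06 in WT (SD, n = 2 each), and id1 rose by 4.93 on the log2 scale (SE 0.69, 95% confidence interval 3.27 to 6.60, limma adjusted p = 0.0303, DESeq2 adjusted p = 2.67e-13). The limma log2 fold change was 5.89 without Tg(ins:il1b) replicate 1 and 3.97 without Tg(ins:il1b) replicate 2.

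id4 (chromosome 16, 10086956 to 10089500) had 1288 and 1566 normalised counts in Tg(ins:il1b), against 500.6 and 442.8 in WT. Replicates were close in both genotypes. The means were 1427 ± 197 in Tg(ins:il1b) and 472 ± 40.9 in WT (SD, n = 2 each), and id4 rose by 1.59 (SE 0.24, 95% confidence interval 1.01 to 2.17, limma adjusted p = 0.0395, DESeq2 adjusted p = 6.64e-06). id4 lies over cep76 on the same strand, which had 42.4 and 39.5 in Tg(ins:il1b) and 72.6 and 55.0 in WT.

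The other id genes were uneven between libraries. id2a had 467.9 and 2983 normalised counts in Tg(ins:il1b) and 233.3 and 52.1 in WT (log2 fold change 3.41, SE 0.99, adjusted p = 0.187). id3 had 17.2 and 172.0 in Tg(ins:il1b) and 14.7 and 0 in WT (3.82, SE 1.62, adjusted p = 0.354), and id2b had 29.3 and 43.8 in Tg(ins:il1b) and 19.3 and 4.8 in WT (1.76, SE 0.87, adjusted p = 0.426). Each was higher in Tg(ins:il1b) replicate 2 than in replicate 1, and neither limma nor DESeq2 called them. Tg(ins:il1b) replicate 2 also had the higher gcga, ghrl and sst1.1 values of the pair, and the higher sums of the leukocyte, neutrophil and duct markers. The glucagon gene gcgb ran the other way, at 76536 in replicate 1 and 56798 in replicate 2. So did the 6 proliferation markers, at sums of 4036 in replicate 1 and 1059 in replicate 2. Whether the source of these differences between replicates had a part in the id values was not tested.

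The antisense transcript at id1 (chromosome 11, 18540020 to 18545706) had 11.1 and 48.1 normalised counts in Tg(ins:il1b) and 0 in both WT libraries, at least 10.5-fold higher with 3 reads per library as the limit. DESeq2 called it (adjusted p = 0.0100) and limma did not (adjusted p = 0.154). The call was lost in DESeq2 without WT replicate 1 (adjusted p = 0.142) and WT replicate 2 (adjusted p = 0.140), and without Tg(ins:il1b) replicate 2 no adjusted p was given. Its position spans id1 on the opposite strand, and without stated strand counting its reads and those of id1 cannot be told apart. Per kilobase, the 5 protein-coding id genes summed to 1704 and 4374 in Tg(ins:il1b) and 587 and 430 in WT. id4 made up 63.5% and 30.1% of that sum in the Tg(ins:il1b) libraries, against 71.6% and 86.5% in WT.

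**Figure D4:**
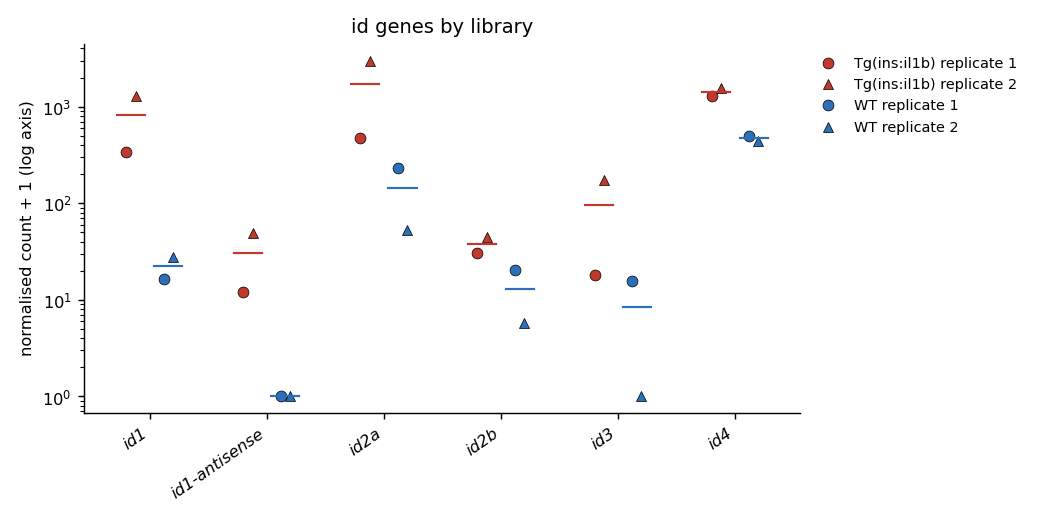
Normalised count plus 1 (log axis) of the 6 id rows, with 1 point per library and a bar at the mean of each genotype. All Tg(ins:il1b) points (red) lie above all WT points (blue), closely grouped for id4 (1288 and 1566 against 500.6 and 442.8) and spread widely for id2a (467.9 and 2983 against 233.3 and 52.1). The id1 antisense row passed the filter only through its Tg(ins:il1b) libraries. Of all genes tested, 22.3% were wholly higher in Tg(ins:il1b).

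The 5 genes that belong by name only included no call. bmp1b, a procollagen-processing protease despite its name, was at 0 in both Tg(ins:il1b) libraries and at 7.3 and 30.9 in WT. This was at least 6.12-fold lower over the group. The bmp1b bound rests mainly on WT replicate 2, at 32 reads, since WT replicate 1 had 8. The gene failed the filter for limma, and DESeq2 gave an adjusted p of 0.0622. bmp2k, a kinase of membrane traffic, had 819.6 and 1072 normalised counts in Tg(ins:il1b) and 739.3 and 681.1 in WT. tgfbi, a matrix protein induced by TGF-β in mammalian cells, had 51.5 and 298.1 in Tg(ins:il1b) and 19.3 and 0 in WT (log2 fold change 4.80, SE 1.54, adjusted p = 0.223). bmp1a and tgfbrap1 overlapped between genotypes.

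Beyond the members, 67 rows for processing enzymes, latent-ligand carriers, co-receptors, SMAD regulators and further targets of the pathway were matched, of which 53 were tested. Limma called 1 of them, pcsk6, and no other in either direction, where 1.63% of all genes tested were called, and their median log2 fold change was -0.01. pcsk6 encodes PACE4, a convertase that cleaves precursors of this ligand family. It had 3218 and 3861 normalised counts in Tg(ins:il1b), against 913 and 1220 in WT, without overlap, and rose by 1.74 on the log2 scale (SE 0.24, limma adjusted p = 0.0287, DESeq2 adjusted p = 6.17e-07).

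DESeq2 called 4 of these genes higher, pcsk6 among them, and 1 lower, against 4.24% and 2.45% of all genes. lrrc32, which encodes GARP, a cell-surface anchor for latent TGF-β1, had 101.1 and 225.5 normalised counts in Tg(ins:il1b) and 34.9 and 21.2 in WT. zeb2a, a SMAD-binding repressor, had 236.5 and 258.6 in Tg(ins:il1b) and 68.9 and 87.8 in WT. her9, a hairy-related repressor, had 84.9 and 426.4 in Tg(ins:il1b) and 51.4 and 50.2 in WT. In each of these genes the genotypes did not overlap. smurf2, an E3 ubiquitin ligase that targets SMADs and their receptors, was the gene called lower, at 503.3 and 401.8 in Tg(ins:il1b) and 800.0 and 1016 in WT (DESeq2 adjusted p = 0.0391, limma adjusted p = 0.158). Leaving out libraries, DESeq2 lost zeb2a (adjusted p = 0.140 to 0.359) and smurf2 (adjusted p = 0.0834 to 0.788) in every case. her9 was kept without Tg(ins:il1b) replicate 1 only, with an adjusted p of 0.9995 without Tg(ins:il1b) replicate 2, 0.170 without WT replicate 1 and 0.192 without WT replicate 2. lrrc32 was lost without Tg(ins:il1b) replicate 2 (adjusted p = 0.535) and without WT replicate 2 (adjusted p = 0.207), and pcsk6 was kept in every case.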

How the data were processed

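mRNA of FACS-sorted β-cells was sequenced in 2 Tg(ins:il1b) and 2 WT libraries, grouped by the genotype in the sample labels. The authors deposited 1 table of normalised counts (a signal scaled between libraries, not raw counts), with gene length, position and biotype. The submitters' processing notes name GSNAP and GRCz10. For the counting tool, strand setting and normalisation tool nothing is given in the sources used here. Apart from a common factor, the recovered scaling of the libraries differed from DESeq2 size factors by at most 8.73e-06 percent. Dividing by the value of 1 read gave whole numbers (tolerance 0.1) for 99.98% to 100% of values in each library, and these reads gave the depths of 28524617 to 35637509.

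Genes that reached 10 normalised counts in 2 or more libraries (18504 of 22044) were tested on log2(normalised count + 1), so that fold changes of low genes are understated, by limma 3.58.1 with a variance trend in R 4.3.3, two-sided, with Benjamini-Hochberg adjustment and an adjusted p threshold of 0.05. DESeq2 1.42.0 and edgeR 4.0.16 on recovered reads, other pseudocounts, filters and scalings, leaving out each library, and a replicate block were tried as alternatives. DESeq2 gave an adjusted p for 18625 genes. The main limma fit, edgeR and DESeq2 were run on 1 set of simulated counts with known changes, and the other alternatives were not. Members, pathway lists and marker lists were chosen with earlier results of these data known. Named genes were every member called by limma, DESeq2 or edgeR, bmp6, the 3 highest-mean members of each role, members tested with non-overlapping genotypes and a log2 fold change of at least 1 in size, and other pathway genes called by limma or, up to 4 with the smallest adjusted p, by DESeq2. Further members named, such as gdf2, smad7 and the acvr1b pair, and the non-members chordin (chd), tgfbr2l, smad10a and smad10b were chosen after their values were seen. Figures were drawn with matplotlib 3.10.9.

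Current symbols were found for 73 of the 76 members. No sequence is printed, since the sources used here for names hold none.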

Additional observations from a re-analysis of the deposited data

How the results depend on the processing

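The calls of bmp6, ACVR1C, id1 and id4 were kept under pseudocounts of 0.5 and 5, no filter, a filter of 50, TMM scaling, scaling by total reads (which moved the median of all genes by 0.16), edgeR and DESeq2. Without the variance trend limma called 13 genes of the table, 0 members and 0 other pathway genes. DESeq2 called 1245 genes, 9 members and 5 other pathway genes. Without each library in turn, limma called 0 to 1 genes of the table, 0 members and 0 other pathway genes. The 4 leave-one-out fits of DESeq2, chosen after seeing the data, called 6 to 8 members, so that all such fits together gave 0 to 8. Each leave-one-out fit assumes that the lone library varies like the other genotype.

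Among named genes, the log2 fold change of gdf3 was 0.037 with scaling by total reads. Leaving out libraries turned the sign of 7 genes near 0 or set by 1 library. Their limma ranges were -0.50 to 0.25 for gdf3, -0.38 to 3.96 for tgfb3, -0.068 to 0.19 for acvr2aa, -0.081 to 0.39 for bmpr1aa, -0.75 to 0.16 for smad2, -0.40 to 0.056 for bmp1a and -0.15 to 0.31 for tgfbrap1. With DESeq2 the ranges were -0.50 to 0.25 for gdf3, -0.61 to 3.96 for tgfb3, -0.078 to 0.19 for acvr2aa, -0.088 to 0.39 for bmpr1aa, -0.80 to 0.17 for smad2 (0.11 without Tg(ins:il1b) replicate 1), -0.40 to 0.050 for bmp1a and -0.15 to 0.31 for tgfbrap1. The cause was not tested. The labels give both genotypes the same replicate numbers, but deviations of same-numbered libraries correlated at 0.03 and 2 pairs cannot establish pairing. With a replicate block, limma called 437 genes and 6 members, adding tgfb1a and fstl1b. With 2 libraries a genotype, members read a few times, such as bmp4, gdf9 and smad1, rest on 0 to 30 reads a library.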
